A study of Carassius auratus with 10 samples.

Results

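Glial glutamate transporters and glutamine synthetases were followed through goldfish radial glial cell (RGC) cultures. The 5 genes were the transporters *slc1a3a*, *slc1a3b* and *slc1a2b* and the synthetases *glula* and *glulb*, each taken from the gene name that the deposited annotation gives an assembled transcript (a unigene). By that rule 9 unigenes of 170956 were members, 4 of transporters and 5 of synthetases. They carried 4 of the 5 names, because no unigene had the gene name *slc1a3a*. A further 3 unigenes named *slc1a3a* or *slc1a2b* only inside the text of the protein description and are given apart wherever they enter a value.

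RGCs were grown from dissected hypothalamus and telencephalon of females and treated at passage 3. The labels name 3 cultures exposed for 24 h to 1000 nM secretoneurin A (SNa), a neuropeptide, 3 cultures exposed for 24 h to 10 µM SKF 38393 (SKF), a dopamine D1 receptor agonist, and 4 untreated control cultures, and they name no genetic alteration in any of them. Sequencing used 2 lanes for 3 of the control libraries and 1 lane for the other, and the same controls served both comparisons. The deposited tables hold 1 normalized value per unigene and pool, so no difference below has a replicate check, the share of any single culture in a value cannot be seen, and a difference between cultures cannot be told apart from the treatment.

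Radial glia line the ventricles of the adult fish brain, where they act as neural progenitors. The glutamate transporters of solute carrier family 1, to which *slc1a3a*, *slc1a3b* and *slc1a2b* belong, take glutamate from the extracellular space into the cell together with sodium. The product of *slc1a3* is known in mammals as GLAST or EAAT1 and that of *slc1a2* as GLT-1 or EAAT2, and both are classical proteins of astroglia. Glutamine synthetase, the product of the *glul* genes, joins the glutamate that was taken up with ammonia to give glutamine, which neurons use to make transmitter again. The letters a and b mark gene copies that arose in the teleost lineage, as they are named in zebrafish.

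The unigenes covered their proteins to different extents. Of the *slc1a3b* unigenes, 130343 matched residues 1 to 537 of its protein at 93.7% identity and lay in the reverse orientation. Unigene 22759 matched residues 1 to 357 at 93.0% and unigene 22760 residues 107 to 537 at 94.2%, so they overlapped over much of the protein. The single *glula* unigene, 21909, matched residues 1 to 371 at 94.3%. The *glulb* unigenes formed 2 pairs with neighbouring numbers, and all matches started at residue 13. In each pair the shorter match (80145 or 127636) ended at residue 201 and the longer match (80146 or 127637) at residue 371. The shorter and the longer matches were to different protein entries. The end at residue 201 therefore does not show that the shorter unigenes are cut forms of the longer ones. The only unigene with the gene name *slc1a2b*, 105526, matched 34 residues, at 100% identity. Among the unigenes named inside the description, 76465 (*slc1a3a*) matched residues 1 to 537 at 93.1%, 69949 (*slc1a2b*) matched residues 3 to 525 at 95.4%, and 32071 (*slc1a3a*) matched residues 1 to 92 at 77.2%. Whether unigenes of 1 name are gene copies, alleles or splice forms is not shown by the tables, and reads shared by such unigenes may have been split between them or counted more than once.

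**Figure D1:**
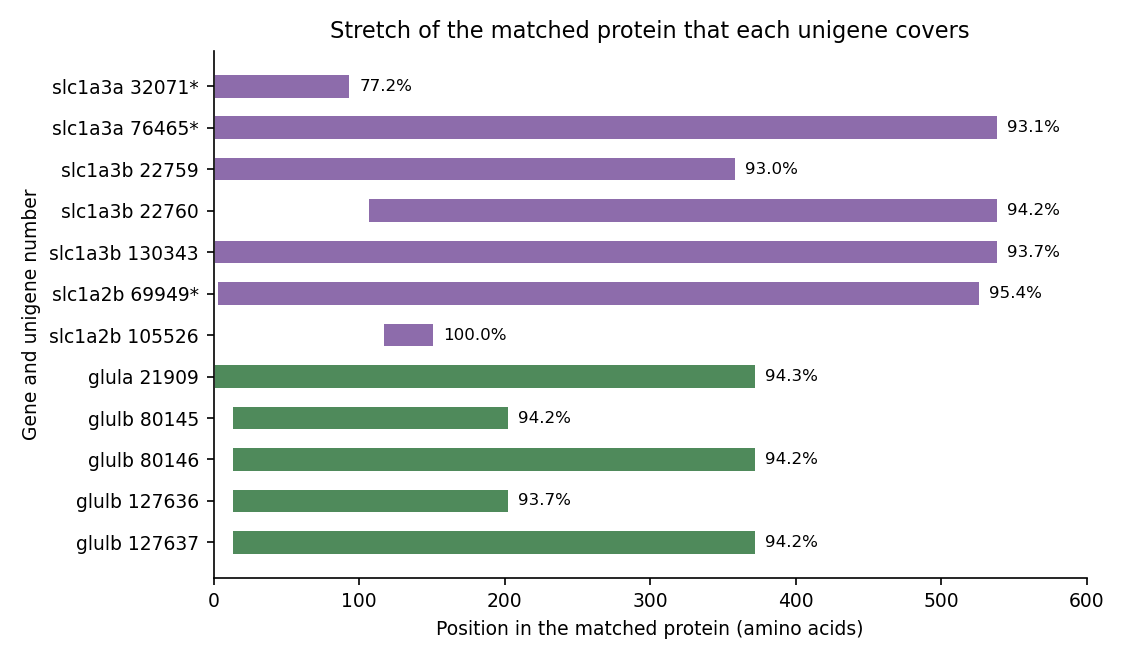
Stretch of the matched protein covered by each unigene, in amino acids on the horizontal axis, with the percent identity beside each bar (transporters in purple, synthetases in green; an asterisk marks a name found only inside the protein description). The longest transporter matches were those of *slc1a3a* (76465) and *slc1a3b* (130343), each over residues 1 to 537. For *slc1a2b*, the unigene named in its description (69949) covered residues 3 to 525 and the unigene with the gene name covered 34 residues.

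The pools held 64778968 reads for SNa, 86711702 for SKF and 147886694 for control. Levels are given as reads per 1000000 reads of the pool (CPM), and 3 reads, taken as the limit of detection, corresponded to 0.0463 CPM in the SNa pool, 0.0346 CPM in the SKF pool and 0.0203 CPM in the control pool. Fold differences are ratios of the normalized values, on the log2 scale, with exact binomial (Clopper-Pearson) intervals at 95% in parentheses. The intervals were computed on reads divided by 2, because mates of a read pair seem to have been counted apart (79.7%, 78.0% and 74.8% of the values in the SNa, SKF and control pools were even numbers of reads), and they cover counting error only. A gene was counted as lower or higher where its log2 ratio was past 0.5, the fold cut-off of the study, and its mean normalized value was at least 10. The study also used p-values and a false discovery rate, which were not applied here. No member is among the annotated genes that the paper lists past its false discovery rate for SNa. True levels are not compared between genes, because the length of a unigene is not in the tables used here. Shares and ratios of reads between genes are given only to compare the pools. Genes called abundant are so by reads or normalized values that are not corrected for length.

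The transporter *slc1a3b* was the member with the largest difference in both comparisons. Its 3 unigenes together had 2674 reads in the SNa pool, 3573 reads in the SKF pool and 52923 reads in the control pool. These were 41.3 CPM (39.1 to 43.6) in the SNa pool, 41.2 CPM (39.3 to 43.1) in the SKF pool and 358 CPM (354 to 362) in the control pool. The intervals of the treated pools overlapped each other, and both lay far below that of the control pool. The log2 ratio was -3.13 (-3.21 to -3.05) for SNa over control, which leaves 0.114 times the control value. For SKF over control it was -3.13 (-3.20 to -3.06), or 0.115 times the control value. SNa and SKF differed by a log2 of -0.0017 (-0.10 to 0.10) when each was set against the shared controls.

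Each *slc1a3b* unigene gave a similar ratio. Unigene 130343, the longest match, had 969 reads in the SNa pool, 1308 in the SKF pool and 20713 in the control pool, with log2 ratios of -3.24 for SNa and -3.22 for SKF. Unigene 22760 had 903, 1245 and 17193 reads in the SNa, SKF and control pools and log2 ratios of -3.07 for SNa and -3.02 for SKF. Unigene 22759 had 802, 1020 and 15017 reads in the same pools and log2 ratios of -3.05 for SNa and -3.12 for SKF. These unigenes overlap in the protein and may share reads, so they are not separate measurements of the gene. The unigene with the longest match took 36.2% of the *slc1a3b* reads in the SNa pool (33.6 to 38.8), 36.6% in the SKF pool (34.4 to 38.9) and 39.1% in the control pool (38.5 to 39.7).

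The paralog *slc1a3a*, read from the protein description, was lower as well, by a smaller factor. Its 2 unigenes had 206 reads in the SNa pool, 318 in the SKF pool and 1318 in the control pool, nearly all of them in 76465. The level was 3.18 CPM (2.60 to 3.86) with SNa, 3.67 CPM (3.12 to 4.28) with SKF and 8.91 CPM (8.24 to 9.62) in the control pool. The intervals of the treated pools overlapped each other and not that of the control pool. The log2 ratio was -1.50 (-1.81 to -1.20) for SNa and -1.29 (-1.55 to -1.04) for SKF, and the SNa and SKF values differed by -0.21 (-0.58 to 0.16). Of the reads of both *slc1a3* paralogs, *slc1a3a* held 7.15% in the SNa pool (5.88 to 8.61), 8.17% in the SKF pool (7.00 to 9.48) and 2.43% in the control pool (2.25 to 2.62). The short unigene 32071 had 2 reads in the SNa pool, 5 in the SKF pool and 6 in the control pool and adds nothing to these values.

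The transporter *slc1a2b* could barely be measured by its gene name. Unigene 105526 had 4 reads in the SNa pool, 8 in the SKF pool and 4 in the control pool, close to the limit of detection. Its log2 ratios of 1.18 (-2.61 to 4.97) for SNa and 1.76 (-1.04 to 5.23) for SKF had intervals that included 0. With unigene 69949, named *slc1a2b* in its description, the gene had 1198 reads in the SNa pool, 1552 in the SKF pool and 3019 in the control pool. These were 18.5 CPM (17.0 to 20.0), 17.9 CPM (16.7 to 19.2) and 20.4 CPM (19.4 to 21.5) in the SNa, SKF and control pools. The log2 ratio was then -0.15 (-0.29 to -0.02) for SNa and -0.20 (-0.32 to -0.07) for SKF, within the threshold in both comparisons. Per *slc1a2b* read there were 2.23 *slc1a3b* reads in the SNa pool, 2.30 in the SKF pool and 17.5 in the control pool.

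**Figure D2:**
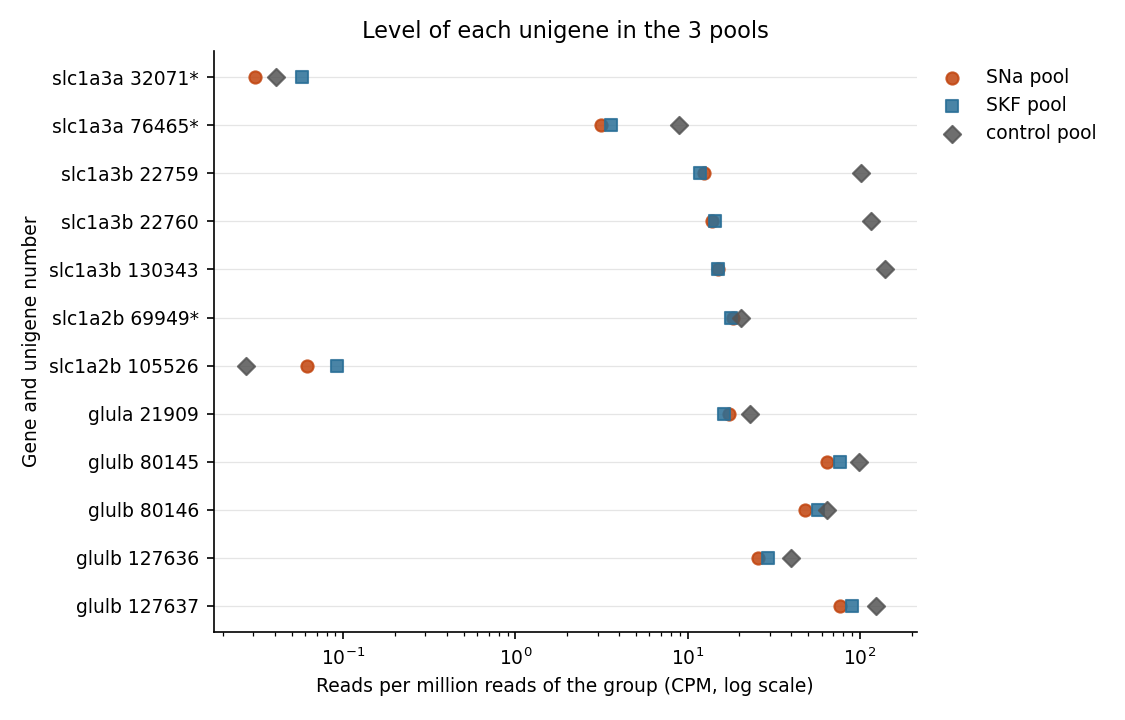
Level of each unigene in the SNa pool (circles), the SKF pool (squares) and the control pool (diamonds), as CPM on a log axis, with 1 point per pool and no replicate error (an asterisk marks a name found only inside the protein description). The *slc1a3b* unigenes lay at 11.8 to 15.1 CPM in the treated pools and at 102 to 140.1 CPM in the control pool, while *slc1a2b* 69949 lay at 17.8 to 20.4 CPM in all 3 pools.

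The synthetase *glulb* had its lowest value in the SNa pool, an intermediate one in the SKF pool and its highest in the control pool. Its 4 unigenes had 13935 reads in the SNa pool, 21955 in the SKF pool and 48598 in the control pool. The level was 215 CPM (210.1 to 220.2) with SNa, 253 CPM (248 to 258) with SKF and 329 CPM (324 to 333) in the control pool, and no pair of these counting intervals overlapped. The log2 ratio was -0.62 (-0.66 to -0.58) for SNa over control, past the threshold. For SKF over control it was -0.38 (-0.42 to -0.35), within the threshold. The SNa value lay below the SKF value by a log2 difference of -0.24 (-0.28 to -0.20), an interval that holds no spread between cultures.

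Within *glulb* the unigenes ran in the same direction. In the SNa comparison their log2 ratios were -0.64 (80145), -0.45 (80146), -0.65 (127636) and -0.70 (127637). In the SKF comparison they were -0.38, -0.19, -0.46 and -0.47 in the same order. For all 4 unigenes the SNa value was the lower of the 2. These unigenes may share reads and come from the same pools, so they are not separate measurements of the gene. Of the reads of the first pair, the longer match 80146 held 42.5% in the SNa pool (40.9 to 44.2), 42.6% in the SKF pool (41.3 to 43.9) and 39.4% in the control pool (38.5 to 40.3). Of the reads of the second pair, the longer match 127637 held 74.9% in the SNa pool (73.4 to 76.4), 75.4% in the SKF pool (74.2 to 76.6) and 75.6% in the control pool (74.8 to 76.4), with overlapping intervals.

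The synthetase *glula* differed less from control with SNa and passed the threshold by a narrow margin with SKF. It had 1132 reads in the SNa pool, 1404 in the SKF pool and 3411 in the control pool. The level was 17.5 CPM (16.1 to 19.0) with SNa, 16.2 CPM (15.0 to 17.4) with SKF and 23.1 CPM (22.0 to 24.2) in the control pool. The log2 ratio was -0.41 (-0.55 to -0.27) for SNa and -0.52 (-0.65 to -0.39) for SKF, and both intervals included the threshold. SNa and SKF differed by 0.11 (-0.06 to 0.27), so an order between them was not detectable at this depth. Of the reads of both synthetases, *glula* held 7.51% in the SNa pool (6.93 to 8.13), 6.01% in the SKF pool (5.59 to 6.46) and 6.56% in the control pool (6.26 to 6.86).

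**Figure D3:**
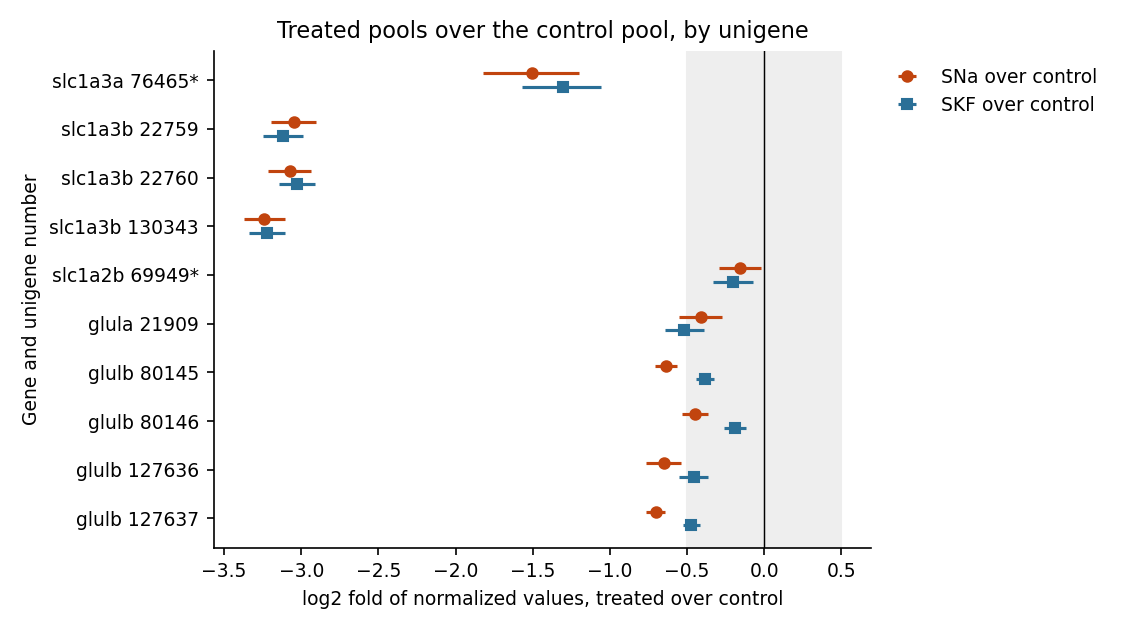
Log2 ratio of the normalized value in the SNa pool (circles) and in the SKF pool (squares) over the control pool for each unigene with at least 10 reads in every pool, with 95% counting intervals (an asterisk marks a name found only inside the protein description); the grey band marks log2 ratios within 0.5. The 3 *slc1a3b* unigenes lay between -3.24 and -3.02, and the 4 *glulb* unigenes between -0.70 and -0.19.

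By gene name, 3 of the 4 member genes had a mean normalized value of at least 10. In the SNa comparison 2 of these 3 (*slc1a3b* and *glulb*) were lower and none was higher, while 14.5% of all 15900 gene names measured were lower and 12.4% were higher. In the SKF comparison 2 of 3 (*slc1a3b* and *glula*) were lower and none was higher, while 14.6% of all 16080 gene names were lower and 16.7% were higher. Relative to the unigenes nearest in number, *glula* had -0.44 with SKF, and 1 of 3 was then lower. With the names inside the descriptions, 3 of 5 were lower in each comparison, *slc1a3a* being the third, beside 14.4% of 17347 names lower and 12.9% higher for SNa, and 14.3% of 17544 lower and 17.3% higher for SKF. The median log2 ratio of the 3 transporters was -1.50 for SNa and -1.29 for SKF, that of the 2 synthetases was -0.52 for SNa and -0.45 for SKF, and that of all these names was 0.01 for SNa and 0.05 for SKF. With so few members these counts set no group of genes apart.

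The place of each member among genes of like abundance was also described. Of 587 names whose control reads were within 2-fold of those of *slc1a3b*, 3 had a lower log2 ratio with SNa and 4 with SKF. For *slc1a3a* it was 47 of 4660 names with SNa and 59 with SKF. For *glulb* 46 of 634 names were lower with SNa and 124 with SKF, and for *glula* 593 of 4786 with SNa and 403 with SKF. *slc1a2b* stood well inside the bulk, with 1561 of 4868 names lower with SNa and 1369 with SKF.

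The genes whose pair of log2 ratios lay nearest to that of a member, over the 3 pools and among names of like control level, were listed without a test. For *slc1a3b* they were *crabp1a*, a cellular retinoic acid binding protein (distance 0.15), a locus with a number for a name (0.16) and *crybb2*, a crystallin of the eye lens (0.51), and only 2 of 584 names lay within 0.25. For *slc1a3a* they were *tonsl*, *sgsm2* and *il12a*, with 23 of 4659 names within 0.25. For *glulb* they were *limk2*, a kinase of actin regulation, *ccnl1b*, a cyclin, and *crb2a*, a cell polarity protein, with 64 of 631 names within 0.25. For *glula* (*ndufb1*, *cept1a* and *ccdc59*) and *slc1a2b* (*slc25a46*, *mat2al* and *tango2*) the surroundings were crowded, with 651 of 4784 and 1405 of 4866 names within 0.25.

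Other genes of the transporter and synthetase families did not share the low values of *slc1a3b*. Of 11 further names of these families 5 were found and 4 had a sufficient mean, of which 1 was lower and 1 higher in each comparison. Over all names 14.4% were lower and 12.9% higher with SNa, and 14.3% lower and 17.3% higher with SKF, so 4 genes are too few to set beside these shares. The higher gene was *slc1a5*, whose mammalian product exchanges glutamine and other neutral amino acids, at 154 CPM in the SNa pool, 157 CPM in the SKF pool and 107 CPM in the control pool. Its log2 ratio was 0.51 (0.46 to 0.56) for SNa and 0.54 (0.50 to 0.59) for SKF. *slc1a4*, a neutral amino acid transporter, had log2 ratios of 0.23 for SNa and 0.20 for SKF, and *slc1a1*, known in mammals as the neuronal transporter EAAT3, had 0.16 for SNa and 0.18 for SKF. The lower gene, *slc1a9*, rested on 4 reads in the SNa pool, 8 in the SKF pool and 22 in the control pool. Per *slc1a5* read there were 0.268 *slc1a3b* reads in the SNa pool, 0.262 in the SKF pool and 3.34 in the control pool. Per *glulb* read there were 0.192 *slc1a3b* reads with SNa, 0.163 with SKF and 1.09 in the control pool, so *slc1a3b* was lower than *glulb* relative to control in both treated pools.

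Genes that make, use or carry glutamate and glutamine lay around the median of all genes. Of 34 names on this list 17 were found, with 2 lower and 2 higher in the SNa comparison and 1 lower and 4 higher in the SKF comparison. For the counts of this paragraph, 14.4% of all names were lower and 12.9% higher with SNa. With SKF 14.3% of all names were lower and 17.3% higher. The list had median log2 ratios of 0.08 for SNa and 0.13 for SKF. Its most abundant members were within the threshold. *slc38a2*, a sodium-coupled carrier of neutral amino acids, had log2 ratios of 0.28 for SNa and 0.32 for SKF. *slc25a22*, a mitochondrial glutamate carrier, had 0.07 for SNa and -0.08 for SKF, *glud1a*, a glutamate dehydrogenase, had -0.26 for SNa and -0.21 for SKF, and *slc3a2b* had 0.16 for SNa and 0.18 for SKF. Chosen after their values were seen, *slc3a2a*, a subunit of amino acid exchangers, had -0.93 for SNa and -0.82 for SKF, and the glutamine carriers *slc38a5a* and *slc38a5b* had 0.69 and 0.63 for SNa and 0.63 and 0.63 for SKF. Also chosen in this way, *slc38a3a*, whose mammalian counterpart releases glutamine from astrocytes, had 0.32 for SNa and 0.80 for SKF. Of 26 names of partners of glial uptake (sodium pump subunits, transporter binding proteins and astroglial genes) 11 were found and 9 had a sufficient mean, with 1 lower and 2 higher in each comparison. Among the most abundant of them, *atp1b1a*, a sodium pump subunit, had log2 ratios of -0.09 for SNa and 0.06 for SKF, and *arl6ip5b*, whose rat counterpart binds the neuronal transporter EAAT3, had 0.29 for SNa and 0.18 for SKF. The genes past the threshold were chosen after their values were seen. The lower gene was *ndrg2* with SNa (-0.53, and -0.32 with SKF) and *aldh1l1* with SKF (-0.55, and -0.29 with SNa). The higher genes in both comparisons were *atp1b2a* (0.54 with SNa and 0.90 with SKF) and *slc6a9* (0.71 with SNa and 1.07 with SKF). The values of *slc6a9* rested on 42 reads in the SNa pool, 72 in the SKF pool and 58 in the control pool. Its SNa interval (-0.17 to 1.57) included 0.

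**Figure D4:**
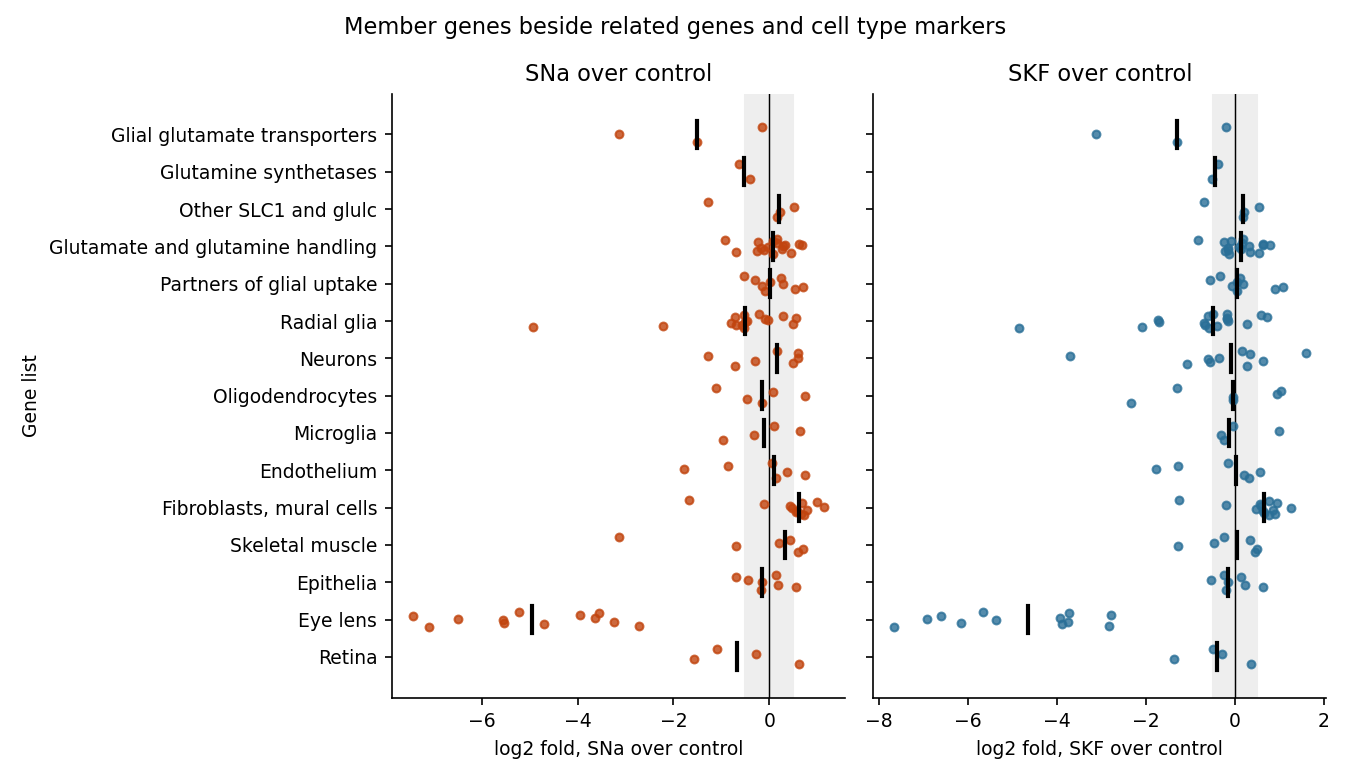
Log2 ratio of each gene with a mean normalized value of at least 10 in the SNa pool (left) and the SKF pool (right) over the control pool, by gene list, with a black bar at the median of each list and a grey band at log2 ratios within 0.5. The lens list lay lowest in both panels (medians -4.96 for SNa and -4.64 for SKF), and the fibroblast and mural list had the highest medians (0.63 for SNa and 0.66 for SKF).

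Markers of several cell types differed between the pools, which bears on the members because in pooled bulk RNA fewer cells of a type and less RNA per cell cannot be told apart. Of 20 radial glia markers 17 were found, and *vim*, *gfap* and *her6* were abundant in every pool. The names *cyp19a1b*, *cx43* and *hes5* were not found as a gene name or inside a protein description. The paper lists *cyp19a1b* and *cx43*, and also the members *slc1a3a* and *glula*, among the markers that its RNA-Seq identified in goldfish RGCs. Other names for *cyp19a1b*, *cx43* and *hes5* were not searched, so a name that was not found does not show that the transcript was absent. The radial glia markers summed to 5259 CPM in the SNa pool, 5192 CPM in the SKF pool and 8185 CPM in the control pool. The fibroblast and mural list described below summed to more in each pool (32820, 33291 and 22454 CPM in the same order). Such sums do not give the share of a cell type in a culture, and whether the cultures match their label was not tested. *gfap*, the intermediate filament of glia, had 1134 CPM in the SNa pool, 1092 CPM in the SKF pool and 1622 CPM in the control pool, with log2 ratios of -0.53 for SNa and -0.58 for SKF. *vim* had log2 ratios of -0.69 for SNa and -0.68 for SKF, *fabp7b*, a brain lipid binding protein, had -2.22 for SNa and -2.09 for SKF, and *her6* had -0.09 for SNa and -0.17 for SKF. The *fabp7b* paralog *fabp7a* had -4.93 for SNa and -4.84 for SKF. In the other direction, *notch3* had 0.57 for SNa and 0.72 for SKF, and *pax6a* had 0.28 for SNa and 0.59 for SKF. The ratios of *nes*, 0.498 for SNa and 0.28 for SKF, were within the threshold. *fabp7a*, *notch3*, *pax6a* and *nes* were chosen after their values were seen. Of the list 9 of 16 markers were lower and 1 higher with SNa, and 8 of 17 lower and 2 higher with SKF. Over all names 14.4% were lower and 12.9% higher with SNa, and 14.3% lower and 17.3% higher with SKF. The medians of the list were -0.51 for SNa and -0.48 for SKF. The log2 ratios of *slc1a3b* lay between the widely spaced ratios of the *fabp7* paralogs in both comparisons, while those of *glulb* and *glula* were nearer to that of *gfap*. The lens gene *crybb2* lay nearer to *slc1a3b* than *fabp7b* did (distances of 0.51 and 1.37), so this position does not set radial glia markers apart from lens genes.

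Markers of the eye lens summed to 101 CPM in the SNa pool, 88.3 CPM in the SKF pool and 1095 CPM in the control pool, and 12 of 12 were lower in both comparisons. For the counts of this paragraph, the shares over all names were 14.4% lower and 12.9% higher with SNa, and 14.3% lower and 17.3% higher with SKF. The most abundant lens marker, the crystallin *crybb2*, had 68.8 CPM with SNa, 62.9 CPM with SKF and 446 CPM in the control pool. Another abundant crystallin, *crybb1*, had 1.30 CPM with SNa, 0.876 CPM with SKF and 176 CPM in the control pool. Fibroblast and mural markers were higher for 8 of 12 genes with SNa and 10 of 13 with SKF, and 1 was lower in each. The lower gene, *rgs5b*, chosen after its values were seen, had log2 ratios of -1.67 for SNa and -1.26 for SKF. Among the most abundant of the list, *col1a1a* had log2 ratios of 0.72 for SNa and 0.77 for SKF, and *col1a2* had 0.57 for SNa and 0.66 for SKF. The abundant *acta2* had 0.68 for SNa and 0.56 for SKF, and *tagln* had -0.11 for SNa and -0.20 for SKF. The fibroblast and mural list summed to 32820 CPM in the SNa pool, 33291 CPM in the SKF pool and 22454 CPM in the control pool. Endothelial markers summed to 45.7 CPM with SNa, 46.3 CPM with SKF and 117 CPM in the control pool, with 2 of 6 lower and 1 higher in each comparison. Most of that sum in the control pool was *cldn5a*, a tight junction claudin, at 30.6 CPM with SNa, 30.4 CPM with SKF and 104 CPM in the control pool, while *kdrl*, an endothelial growth factor receptor, had log2 ratios of 0.15 for SNa and 0.31 for SKF (both genes chosen after their values were seen). Neuronal markers were scarce in every pool (17.1 CPM with SNa, 16.3 CPM with SKF and 17.7 CPM in the control pool). So were oligodendrocyte markers (21.4, 23.6 and 24.0 CPM in the SNa, SKF and control pools) and photoreceptor markers (7.16, 6.98 and 10.5 CPM in those pools). These sums cover only the names found, 10 of 20 neuronal, 6 of 11 oligodendrocyte and 4 of 9 photoreceptor names. A name that was not found does not show that the transcript was absent. Chosen after their values were seen, *elavl3* and *mbpa* had 0 reads with SNa, while *elavl4* had 50 reads and *mbpb* 953 reads in that pool. The microglial list, most of it *apoeb*, which radial glia may also express, summed to 656 CPM with SNa, 595 CPM with SKF and 612 CPM in the control pool. Muscle markers summed to 643 CPM with SNa, 582 CPM with SKF and 425 CPM in the control pool. Most of that sum was *acta1a* (617, 558 and 406 CPM in those pools). Of 6 muscle genes 2 were lower and 2 higher with SNa, and 1 was lower and 0 higher with SKF. Epithelial markers summed to 8146, 7999 and 9137 CPM in the SNa, SKF and control pools. Most of it was *krt8* (5093, 5038 and 5602 CPM), and of 7 genes 1 was lower and 1 higher in each comparison. The part of these lists in the values of *slc1a3b*, *slc1a3a*, *glula* and *glulb* was not tested.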

How the data were processed

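Paired-end poly(A) RNA-seq of 10 RGC cultures (3 SNa, 3 SKF and 4 control by the labels, where the paper's methods name 3 controls) was used. The authors pooled replicates, built a de novo assembly with Trinity, clustered it with CD-HIT and annotated the unigenes by BLAST against chordate proteins. The deposited signal is 1 normalized count per group and unigene, scaled by the authors for each comparison with DESeq. The DESeq version and the read-assigning program are not given in these sources. The percent identity is that of the BLAST match deposited by the authors. Deposited columns with the authors' own fold changes, log2 fold changes, p-values and adjusted p-values were not used.

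Pooled reads were recovered by dividing by the value of 1 read, and 100% of the quotients were whole with a tolerance of 0.01. The plan was an edgeR test on counts per culture. Because the files hold 1 value per group, no test was run and no SD or p-value is given. Normalized values were summed over the unigenes of a gene. The interval calculation was tested on simulated pools with counting error only and every read in a pair, as the interval assumes. The simulation held no odd counts and no spread between cultures, so it does not test the interval under either. Named genes were the members, up to 4 genes of each list with the highest mean normalized value, and the 3 genes nearest to each member by Euclidean distance of both log2 ratios among names with control reads within 2-fold. Other genes are marked as chosen after their values were seen. List genes were matched by gene name or by the name inside the protein description. Members and lists were chosen with earlier results of these data known. Alternatives were other scalings, the median of 1000 unigenes on each side in number, 1 unigene per gene, a minimum mean of 10, a pseudocount of 1, a minimum identity of 80% and a log2 threshold of 1. Python 3.11.15, numpy 2.4.6, scipy 1.17.1, pandas 2.3.3 and matplotlib 3.10.9 were used. No sequence is printed.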

Additional observations from a re-analysis of the deposited data

How the results depend on the processing

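No paired analysis was possible because the files hold 1 pooled value per group, and for the same reason no culture could be left out. Of 90 log2 ratios of members under alternatives, 81 stayed within the counting interval with the same sign, 7 moved past it and 2 changed sign within it. Some alternatives could not move a value, such as the choice of 1 unigene for *glula*, which has only 1. The intervals of *slc1a2b* by gene name were wide, so this tally is a weak measure of stability. Of the counts of members, 3 moved. Both sign changes were those of *slc1a2b*, whose log2 ratios of 1.18 (SNa) and 1.76 (SKF) by gene name became -0.15 (SNa) and -0.20 (SKF) when the name was also read inside the protein description, an alternative chosen after seeing the data, which adds unigene 69949. With a log2 threshold of 1 in place of 0.5, 1 member in place of 2 was counted as lower in each comparison, and it was *slc1a3b*. Relative to the unigenes nearest in number, 1 member in place of 2 was lower with SKF, as *glula* then had -0.44. Across the alternatives run, *slc1a3b* stayed between -3.24 and -3.12 for SNa and between -3.22 and -3.11 for SKF. A match by transporter name in the description was not run, since the descriptions call each family 1 protein an amino acid transporter, and under a minimum mean of 10 per unigene *slc1a2b* had no value by gene name. Depth limits *slc1a2b* by gene name and unigene 32071.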

Other observations

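A symbol stood only inside the protein description for 7051 unigenes, beside 51399 unigenes with a gene name, and the main unigenes of *slc1a3a* and *slc1a2b* were among the 7051. The synthetase gene *glulc*, chosen after its values were seen, had 2 reads in the SNa pool, 12 in the SKF pool and 2 in the control pool. Its SNa and control values lay under the 3 reads taken as the limit of detection.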
